A study of Rattus norvegicus with 18 samples.

Results

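Gene expression was compared between right rat lungs collected 3 h and 30 min into reperfusion of the clamped left lung, in 3 lungs at each time, 6 of the 18 arrays of the study. The arrays were chosen by their labels alone, and every probe set of the array except the spike-in and housekeeping controls was considered. All operated rats were male Sprague-Dawley rats under anesthesia, ventilated through a tracheotomy, whose left chest was opened and whose left lung hilum was clamped for 2 h. The right lungs were never clamped. The other arrays hold the left lungs of the operated rats at 3 h (n = 3) and at 30 min (n = 3), and lungs of 6 control rats taken right after sacrifice, whose side the labels do not give. The 3 h and 30 min lungs came from different rats. Each operated rat gave both lungs, but the labels do not say which left lung belongs with which right lung. No rat was operated without the clamp, so time after surgery, time under anesthesia and ventilation, and time since the left lung was reperfused cannot be told apart.

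The unclamped lung takes more of the cardiac output while the other side is shut off. Transcripts in whole lung come from epithelium, endothelium, stroma, resident macrophages and the blood held in the vessels. Reticulocytes, the youngest red cells of the circulation, still carry messenger RNA that mature red cells have lost, so the blood can add red cell transcripts to lung RNA. Which cells the transcripts came from was not tested here.

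Each value is a probe set signal, the summarised brightness of a set of short probes for 1 transcript, on arrays that had each been scaled to a common mean. Of 15923 probe sets, 10533 passed the filter on low signal and were tested, and they covered 7728 genes. Differences are given as right 3 h minus right 30 min on the scale of log2(signal + 25), with the standard error (SE) of the limma fit, and a probe set was called at an adjusted p under 0.05. The fit pooled the spread behind each p-value over all groups, the left lungs and the controls included. It treated the left and right lungs of a rat as independent. The p-values thus do not rest on the spread between the right lungs alone, whose precision 3 arrays a group limit. Without the controls in the fit no probe set was called between the times. The median signal of the right arrays was 247 to 272 at 3 h and 259.7 to 273 at 30 min. Markers of lung epithelium were present at both times. The mean log2 signal of 13 alveolar type II markers was 12.1 to 12.2 at 3 h and 11.9 to 12.2 at 30 min, against 12.1 to 12.3 in controls.

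Replicate 3 of the right lungs at 30 min stood apart from the other right arrays. Beta-actin is measured by probe sets near each end of its transcript, and the 3' over 5' ratio goes up as RNA breaks down. This ratio was 2.93 in replicate 3, against 1.42 to 1.78 in the other 5 right arrays. The same ratio of GAPDH was 3.04 in that array and 1.07 to 1.30 in the others. Its correlation with the other right arrays over all tested probe sets was 0.896 to 0.941, where the others correlated with each other at 0.925 to 0.957. Without it no probe set was called, so each called gene below is also given without that array.

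Between 30 min and 3 h, 21 of 10533 probe sets were called, 4 higher and 17 lower at 3 h (0.199% of those tested). Taking each gene by its brightest probe set, they represent 1 gene that rose, the fatty acid translocase Cd36, and 14 genes that fell, which is 0.0129% and 0.181% of the 7728 genes. The 14 include Kitlg by its brighter probe set, although its dimmer one lay the other way. The red cell genes Slc4a1 and Bpgm, and Alox15, Ube2o and Rbm38, were among the genes that fell. The lymphocyte surface antigen Cd52 was tested only because its right 30 min arrays passed the filter, and the other 14 called genes had arrays above the filter in more than 1 group. In all 15 genes the 3 arrays of one time did not overlap the 3 of the other. Over all genes, every 3 h array lay above every 30 min array in 5.33% and below in 7.17%, and the median difference was -0.02, with 3606 genes higher and 4122 lower by any amount. At an unadjusted p under 0.05, 1432 probe sets differed, 650 higher and 782 lower (13.6%). Without right 30 min replicate 3 the 15 genes had limma adjusted p-values of 0.0725 to 0.172, and 895 probe sets were below an unadjusted p of 0.05. Their direction could not change, because the 3 h and 30 min arrays of these genes do not overlap. The count of 21 was 5 without right 3 h replicate 1, 6 without right 3 h replicate 2, 36 without right 3 h replicate 3 and 60 without right 30 min replicate 1.

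Of 7 measured red cell markers, Slc4a1 and Bpgm fell, and Hbb and Gypc overlapped between the times. Slc4a1, the band 3 anion exchanger of the red cell membrane, had signals of 224, 151 and 246 in the right lungs at 3 h, against 511, 453 and 633 in those at 30 min. All 3 h values lay below all 30 min values, a 2.42-fold fall (-1.27 ± 0.23, SE, limma adjusted p = 0.026). In controls the signal was 82.6 to 185 (median 147), and the 30 min lungs were all above this range, with a difference from control of 1.74 ± 0.20 (adjusted p = 2.9e-05), while at 3 h it was 0.47 ± 0.20 (adjusted p = 0.097). Both of these comparisons share the controls. A second Slc4a1 probe set went the same way without passing the test, at -0.57 ± 0.22 (adjusted p = 0.27).

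Bpgm, the enzyme that makes 2,3-bisphosphoglycerate in red cells, had signals of 479, 546 and 866 in the right lungs at 3 h, against 1228, 1664 and 3381 in those at 30 min. It fell 3.04-fold (-1.60 ± 0.30, limma adjusted p = 0.036), and 2 of the 3 h values lay within the control range of 469 to 704 (median 579). Alas2, the red cell enzyme that starts heme synthesis, had 1407, 1406 and 2475 in the right lungs at 3 h, against 2881, 3311 and 7126 in those at 30 min. The groups did not overlap, but the difference of -1.25 ± 0.33 did not pass the test (adjusted p = 0.13). At 30 min Alas2 was above every control (1004 to 1772, median 1227). Replicate 3 was the highest 30 min array for Slc4a1, Bpgm and Alas2. Without it the differences were -1.15 (adjusted p = 0.15), -1.20 (adjusted p = 0.15) and -0.85.

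Of 20 erythroid markers, 7 were measured. Slc4a1 and Bpgm were called lower, none was called higher, and 5 of 7 had every 3 h array below every 30 min array, where 7.17% of all genes did. Ahsp, the chaperone of free alpha globin, had 105, 176 and 182 in the right lungs at 3 h, against 223, 246 and 316 in those at 30 min (-0.69 ± 0.25, adjusted p = 0.25), and the Rh blood group gene Rhd had 272, 255 and 346 in the right lungs at 3 h, against 347, 398 and 677 in those at 30 min (-0.61 ± 0.25, adjusted p = 0.31). Beta globin Hbb did not follow, at 14592, 14222 and 18393 in the right lungs at 3 h, against 15026, 12964 and 16527 in those at 30 min, which overlapped (0.08 ± 0.14, adjusted p = 0.85). The sialoglycoprotein gene Gypc, also expressed outside the red cell, had 953, 1228 and 878 in the right lungs at 3 h, against 749, 941 and 1235 in those at 30 min, also overlapping. The list median was -0.69, and -0.56 without right 30 min replicate 3. The mean log2 signal of the 7 markers was 9.49, 9.57 and 9.91 at 3 h, against 10.1, 10.2 and 10.9 at 30 min (exact permutation p = 0.1, two-sided, the smallest that 3 against 3 arrays allow). In bulk tissue, fewer cells of a type and less RNA per cell cannot be told apart.

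Other genes that fell are known from reticulocytes, although they were not on the erythroid list and other cells express them. Alox15, the lipoxygenase first described in reticulocytes and also made by eosinophils and some macrophages, had signals of 265, 231 and 366 in the right lungs at 3 h, against 707, 695 and 1775 in those at 30 min. It fell 3.20-fold (-1.68 ± 0.29, limma adjusted p = 0.026), and 2 of the 3 h values lay within the control range of 208 to 315 (median 276). Alox15 was the member that passed among 26 measured vasoactive and eicosanoid genes. Ube2o, a ubiquitin ligase known to clear ribosomes as reticulocytes mature, had 343, 341 and 355 in the right lungs at 3 h, against 805, 739 and 1803 in those at 30 min. The 3 h arrays were nearly equal and the 30 min arrays all higher, with a 2.83-fold fall (-1.50 ± 0.26, adjusted p = 0.026). The RNA-binding protein Rbm38, known in red cell splicing and as a p53 target, had 377, 268 and 324 in the right lungs at 3 h, against 674, 653 and 1816 in those at 30 min, a fall of 2.77-fold (-1.47 ± 0.27, adjusted p = 0.035). Without replicate 3 of 30 min the differences were -1.24 for Alox15, -1.10 for Ube2o and -0.997 for Rbm38, with adjusted p-values of 0.077, 0.072 and 0.072.

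The left lungs showed no called change with time in these genes. The signals of Slc4a1 were 162, 195 and 244 in the left lungs at 3 h, against 216, 227 and 195 in those at 30 min (-0.09 ± 0.23, limma adjusted p = 0.85). For Bpgm they were 497, 828.85 and 544 at 3 h, against 855, 815 and 569 at 30 min (-0.27 ± 0.30, adjusted p = 0.64). The test of the difference itself, the change in right lungs minus the change in left lungs, gave -1.18 ± 0.32 for Slc4a1 and -1.34 ± 0.43 for Bpgm, and neither passed (adjusted p = 0.26 and 0.43).

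**Figure D1:**
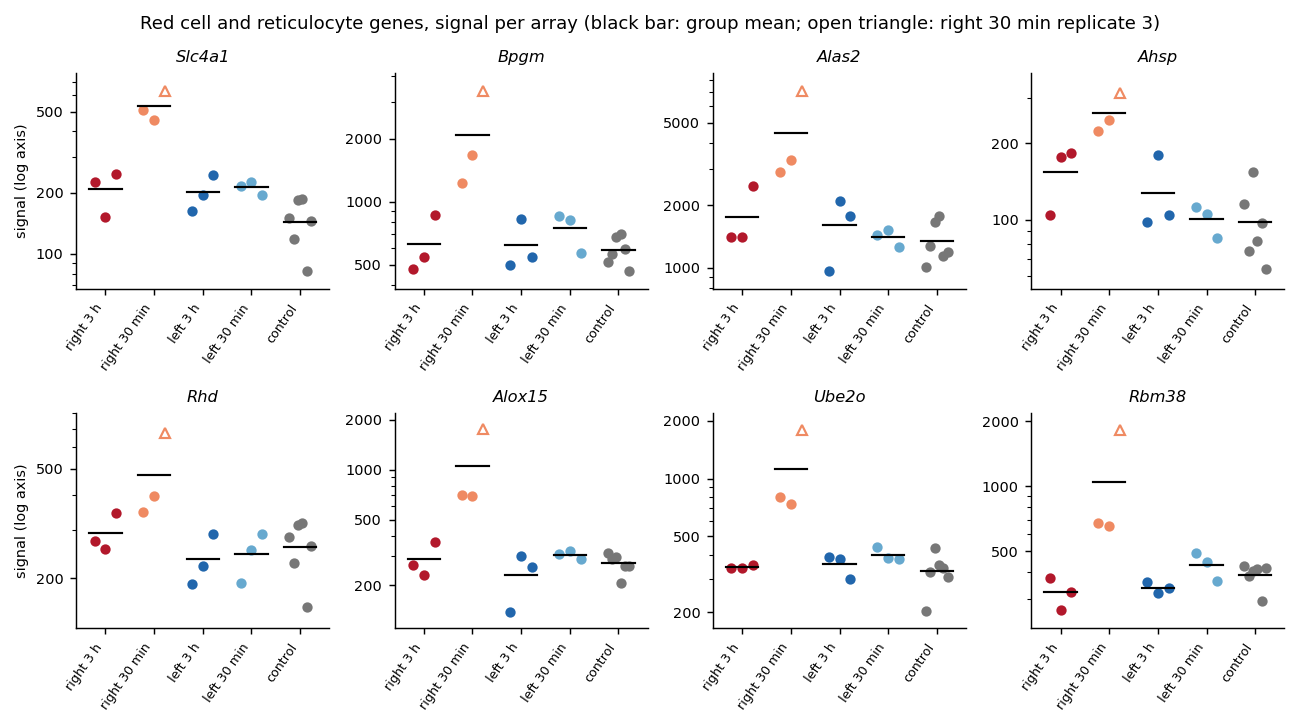
Signal per array (log axis) of 8 red cell and reticulocyte genes in right lungs at 3 h and 30 min, left lungs at 3 h and 30 min, and controls; points are arrays, black bars group means, and the open triangle is right 30 min replicate 3. They are the erythroid list members that were lower at 3 h without overlap, with Alox15, Ube2o and Rbm38 added because they fell. The measured list members Hbb and Gypc, which overlapped, are not shown. By this choice, the right 30 min arrays lie above the right 3 h arrays in each gene. Replicate 3 is the highest of the 30 min arrays.

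The promoters of 2 of the 5 erythroid list genes with a sequence in the RefSeq table held AGATAA, the letters bound by GATA factors of red cell precursors, on either strand. This motif is found in 11.6% of all 33469 promoter windows, each of 300 bases, 250 before and 50 from the gene start. Of the 11 called genes with a window, 1 (N4bp2) held it. Slc4a1, Alox15 and Ube2o are not in the table. Both windows are shown on the gene's strand (rat build GRCr8), with the motif in capitals, because Alas2 and Rhd, neither of them called, are the list members that hold it. They span chrX:22895200-22895499 (plus strand) for Alas2 and chr5:152370950-152371249 (plus strand) for Rhd.
Alas2: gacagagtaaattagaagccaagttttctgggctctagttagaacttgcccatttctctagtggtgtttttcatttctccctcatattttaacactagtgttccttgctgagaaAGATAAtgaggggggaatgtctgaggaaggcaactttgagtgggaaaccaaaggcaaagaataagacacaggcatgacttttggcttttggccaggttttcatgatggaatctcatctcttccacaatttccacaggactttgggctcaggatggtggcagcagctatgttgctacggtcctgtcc
Rhd: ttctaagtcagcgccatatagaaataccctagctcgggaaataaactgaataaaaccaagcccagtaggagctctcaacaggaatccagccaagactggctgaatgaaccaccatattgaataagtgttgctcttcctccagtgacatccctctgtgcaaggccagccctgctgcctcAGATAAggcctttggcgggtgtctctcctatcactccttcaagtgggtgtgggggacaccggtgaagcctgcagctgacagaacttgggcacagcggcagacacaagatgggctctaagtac
A match describes these letters and says nothing of a factor's binding.

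Cd52, a small surface glycoprotein of lymphocytes and monocytes, had signals of 116, 54.3 and 114 in the right lungs at 3 h, against 314, 223 and 678 in those at 30 min. The 3 h lungs lay just above or below the control range of 84.7 to 110.1 (median 89.4), and the 30 min lungs all above it. The fitted difference was -1.75 ± 0.29 (limma adjusted p = 0.023). All 15 other arrays, at 54.3 to 146, lay below the filter's signal of 173.6, so Cd52 entered the test through the group where it was high and had to differ, and no fold is given. The difference was -1.32 without right 30 min replicate 3 (adjusted p = 0.072). No marker of 18 measured T and NK cell genes was called, 2 lay below without overlap (11.1%, against 7.17% of all genes), and the list median was -0.17. In the left lungs Cd52 had 106, 94.0 and 86.6 at 3 h, against 146, 83.9 and 120.1 at 30 min.

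Mx2, an interferon-induced GTPase, had signals of 198, 299 and 199.9 in the right lungs at 3 h, against 824, 374 and 583 in those at 30 min. Its 3 h arrays were all below its 30 min arrays, with a 2.33-fold fall (-1.22 ± 0.24, limma adjusted p = 0.043). At 30 min its difference from control was 0.96 ± 0.21 (adjusted p = 0.0058) and at 3 h -0.27 ± 0.21 (adjusted p = 0.39). Without 30 min replicate 3 the difference was -1.20 and no longer passed (adjusted p = 0.15). Mx2 also fell with time in the left lungs, with 170.2, 161 and 209 at 3 h, against 539, 514 and 567.55 at 30 min (-1.47 ± 0.24, adjusted p = 0.0034), and the difference between the right and left changes was 0.25 ± 0.34 (adjusted p = 0.91).

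Mx2 was the 1 called gene of 24 measured interferon response genes, of which 21 were lower at 3 h and 3 higher by any amount. None lay above without overlap, and 5 lay below (20.8%, against 7.17% of all genes). The list median was -0.28, or -0.24 without right 30 min replicate 3. Rsad2, the antiviral enzyme viperin, was singled out after its values were seen, since it missed the threshold narrowly. It had 447, 642 and 529.9 in the right lungs at 3 h, against 1095, 1441 and 2614 in those at 30 min, which do not overlap (-1.54 ± 0.31, limma adjusted p = 0.0502), and the difference was -1.20 without replicate 3 of 30 min. Mx1, a close relative of Mx2, had 193, 257 and 165 in the right lungs at 3 h, against 414, 286 and 281 in those at 30 min (-0.61 ± 0.27, adjusted p = 0.34). The interferon-induced protease Usp18 had 260.0, 512 and 301 in the right lungs at 3 h, against 574, 475 and 502 in those at 30 min, which overlap. Mx1 and Usp18 were also named after their values were seen.

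The letters GAAA, any 2 bases and GAAA, a form of the interferon-stimulated response element, were found on either strand in the promoter windows of 13 of the 21 interferon list genes with a sequence, in 1 of 11 called genes with a window (N4bp2), and in 3.92% of all windows. Mx2 has no window in the table. That of Rsad2 is shown because its window holds the element, in capitals as its reverse complement, at chr6:48788071-48788370 (minus strand) of GRCr8.
Rsad2: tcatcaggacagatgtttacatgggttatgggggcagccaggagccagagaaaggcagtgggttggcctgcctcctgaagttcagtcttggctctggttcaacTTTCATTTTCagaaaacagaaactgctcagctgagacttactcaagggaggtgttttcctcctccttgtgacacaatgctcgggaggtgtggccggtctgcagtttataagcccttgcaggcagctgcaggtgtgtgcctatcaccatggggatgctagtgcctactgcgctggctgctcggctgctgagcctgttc

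Another 7 called genes were lower at 3 h, none of them on a gene list. Kitlg, the ligand of the receptor Kit on mast cells and progenitors, had signals of 1062, 1183 and 993 in the right lungs at 3 h, against 1727, 1859 and 1599 in those at 30 min. All 6 values were below the control range of 1969 to 2515 (median 2259.6), the 3 h ones furthest. The fall of this probe set with time was 1.59-fold (-0.67 ± 0.13, limma adjusted p = 0.036), against differences from control of -1.04 ± 0.11 at 3 h and -0.37 ± 0.11 at 30 min. A dimmer second Kitlg probe set lay the other way and was not called (0.54 ± 0.30, adjusted p = 0.44), with every 3 h array above every 30 min array. The probe sets of Kitlg thus disagree, and the fall is that of the brighter one, not given for the gene. Its receptor Kit, a mast cell marker on the lists, had 286, 237 and 221 in the right lungs at 3 h, against 269, 123 and 217 in those at 30 min, which overlap (0.31 ± 0.23, adjusted p = 0.58).

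Lxn, an inhibitor of carboxypeptidases, had 368, 377 and 406 in the right lungs at 3 h, against 553, 709 and 636 in those at 30 min. The controls had 723 to 967 (median 821). It was below every control at both times and lowest at 3 h, with a 1.60-fold fall between the times (-0.68 ± 0.12, limma adjusted p = 0.026). C10h1orf35, named in the annotation after an uncharacterised human reading frame, followed the same order, with 132, 147 and 153 in the right lungs at 3 h, against 252, 240.0 and 267 in those at 30 min and 283 to 331 (median 309) in controls. It fell 1.65-fold (-0.72 ± 0.11, adjusted p = 0.021). A second probe set of C10h1orf35 gave -0.10 ± 0.17 (adjusted p = 0.84). Lxn and C10h1orf35 are the 2 genes called both here and in the test of right against left changes. The left lungs had 689.7, 623 and 698 at 3 h, against 517, 571 and 569 at 30 min for Lxn, and the right change minus the left change was -0.95 ± 0.17 (adjusted p = 0.023). For C10h1orf35 this difference was -0.81 ± 0.16 (adjusted p = 0.044).

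Numb, an adaptor that restrains Notch signalling, had 886, 849 and 774 in the right lungs at 3 h, against 1086, 1595 and 1419.5 in those at 30 min. The 3 h values were also below every control (1344 to 1575, median 1427), while the 30 min values lay below, within and above that range, and the fall with time was 1.60-fold (-0.68 ± 0.13, limma adjusted p = 0.043). Atp8b2, a phospholipid flippase, had 458, 429.7 and 449 in the right lungs at 3 h, against 831, 667 and 707 in those at 30 min (-0.69 ± 0.12, adjusted p = 0.026). Relative to controls (515 to 647, median 576) it was lower at 3 h and higher at 30 min, at -0.35 ± 0.11 and 0.33 ± 0.11 (adjusted p = 0.025 and 0.044). Its other probe sets were lower without passing, at -0.49 and -0.36.

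N4bp2, a protein that binds the ubiquitin ligase Nedd4, had 329, 231 and 192 in the right lungs at 3 h, against 512, 500.3 and 489.7 in those at 30 min. The 30 min arrays lay within the control range of 394 to 521 (median 471), and the fall was 1.95-fold (-0.96 ± 0.16, limma adjusted p = 0.023). N4bp2 also fell with time in the left lungs, at -0.64 ± 0.16 (adjusted p = 0.035). Plekhg2 had 183, 114 and 209.7 in the right lungs at 3 h, against 343, 463 and 424 in those at 30 min. It fell 2.28-fold (-1.19 ± 0.23, adjusted p = 0.04), with every 3 h lung below every control (228 to 287, median 252) and every 30 min lung above. For Kitlg, Lxn, Numb, Atp8b2, N4bp2, Plekhg2 and C10h1orf35, leaving out right 30 min replicate 3 gave -0.72, -0.67, -0.64, -0.71, -0.98, -1.16 and -0.68.

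Of the 14 genes that fell by their brightest probe set, 9 were above every control at 30 min and 7 were below every control at 3 h, Kitlg among the 7. The share of all genes that did so was not counted. The 14 had been picked for their fall with time, which makes such positions more likely. Replicate 3 was the highest 30 min array in 7 of the 14, among them the 5 red cell and reticulocyte genes. The other 2 were Cd52 and C10h1orf35.

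**Figure D2:**
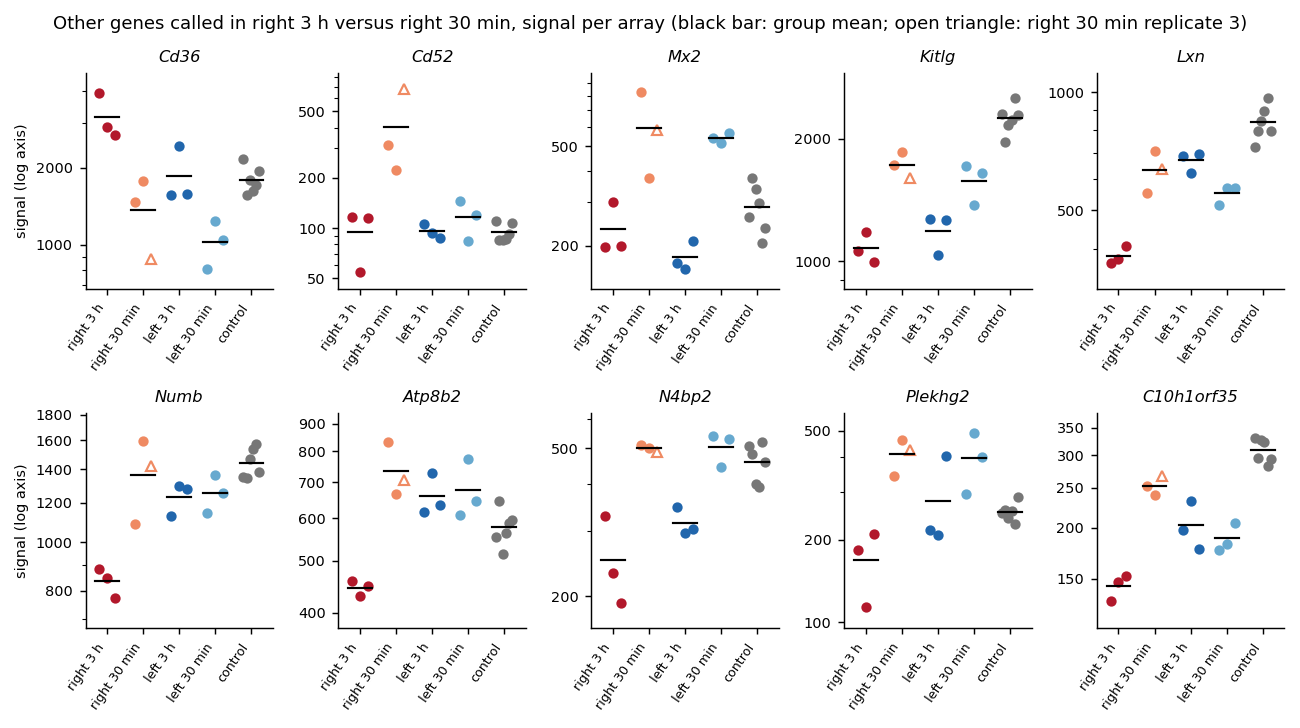
Signal per array (log axis) of the other 10 called genes in right lungs at 3 h and 30 min, left lungs at 3 h and 30 min, and controls; points are arrays, black bars group means, and the open triangle is right 30 min replicate 3. Cd36 is higher at 3 h and the other 9 genes are lower, Kitlg by its brighter probe set. For Lxn, C10h1orf35 and that Kitlg probe set every right array lies below every control.

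Another 6 probe sets were called. A dimmer probe set of Rnf213, a ubiquitin ligase, fell, at -1.32 ± 0.18 (limma adjusted p = 0.0099), while the brighter probe set of that gene gave -0.31 ± 0.17 (adjusted p = 0.43). A dimmer probe set of Max, the dimerisation partner of Myc, was higher, at 1.49 ± 0.26 (adjusted p = 0.026), where the brighter one gave 0.16 ± 0.12 (adjusted p = 0.59). A dimmer probe set of the methionine aminopeptidase Metap1 was higher, at 0.97 ± 0.19 (adjusted p = 0.04), and the brighter one gave -0.07 ± 0.13. These 3 genes were named after their values were seen, and no direction is given for a gene whose probe sets disagree. The remaining 3 called probe sets have no single gene symbol in the annotation.

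Cd36, which takes up long-chain fatty acids and oxidised lipoproteins in macrophages, capillary endothelium and muscle, was the 1 gene that rose. Its signals were 3934, 2899 and 2678 in the right lungs at 3 h, against 1469, 1774 and 879.9 in those at 30 min. The 3 h lungs were all above the control range of 1569.9 to 2159 (median 1751), and replicate 3 had the lowest value at 30 min. The rise was 2.34-fold (1.23 ± 0.24, limma adjusted p = 0.04), and 0.94 without that replicate (adjusted p = 0.17). In the left lungs Cd36 was 1572, 2423 and 1575 at 3 h, against 808, 1241 and 1042 at 30 min (0.82 ± 0.24, adjusted p = 0.0592), and the difference between the right and left changes did not pass (0.40 ± 0.33, adjusted p = 0.84).

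Cd36 was the called member among 29 measured genes of fatty acid uptake and oxidation. In this list 4 lay above without overlap (13.8%, against 5.33% of all genes) and 1 below, with a median of 0.19. Lipoprotein lipase Lpl had 3643, 4218 and 2860.3 in the right lungs at 3 h, against 2250.5, 2655 and 2773 in those at 30 min (0.47 ± 0.21, adjusted p = 0.34). The mitochondrial hydratase Echs1 had 638, 921 and 521 in the right lungs at 3 h, against 363, 477 and 255 in those at 30 min (0.88 ± 0.25, adjusted p = 0.15). Neither passed the test, although their groups do not overlap, and Echs1 was named after its values were seen. The list median without right 30 min replicate 3 was 0.22.

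Heart muscle also expresses Cd36, and cardiac muscle extends along the pulmonary veins of the rat into the lung. The mean log2 signal of 17 cardiac markers was 8.93, 9.84 and 8.10 in the right lungs at 3 h, against 8.84, 8.30 and 6.71 in those at 30 min and 6.54 to 8.55 in controls. No cardiac marker was called and none had groups without overlap, with a median difference of 1.16, or 0.39 without right 30 min replicate 3. The widest differences were those of myoglobin, Mb, with 387, 1629 and 177 in the right lungs at 3 h, against 345, 147 and 10.9 in those at 30 min, and of the atrial light chain Myl4, with 423, 1562 and 237 in the right lungs at 3 h, against 444, 213 and 11.4 in those at 30 min. With the cardiac mean as a covariate Cd36 was higher by 1.09 and no longer passed (limma adjusted p = 0.177), and no probe set was called. The part of cardiac muscle in the result beyond this fit was not tested.

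Immediate early transcription factors, which cells switch on within minutes of a stimulus, were lower at 3 h in 22 of 24 measured members, but none was called. Of 24 measured, 5 lay below without overlap (20.8%, against 7.17% of all genes), none above, and the median was -0.46. Fosb, a subunit of AP-1, had 33.04, 32.2 and 158 in the right lungs at 3 h, against 1962, 106 and 107 in those at 30 min, with 3 h replicate 3 overlapping (-1.94 ± 1.07, limma adjusted p = 0.44). Egr1, a zinc finger factor, had 922, 429 and 3074 in the right lungs at 3 h, against 7979.6, 2706 and 3285 in those at 30 min, with 3 h replicate 3 overlapping the 30 min arrays (-1.92 ± 0.73, adjusted p = 0.27). Atf3, a stress-induced factor of the same list and the unfolded protein list, had 349.5, 276 and 548 in the right lungs at 3 h, against 1337, 1214 and 1959.8 in those at 30 min, without overlap (-1.90 ± 0.70, adjusted p = 0.27). For Fosb and Egr1 the highest 30 min array was replicate 1, and the list median without replicate 3 was -0.65.

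No cytokine or chemokine was called among 22 measured, with a median of -0.21, 17 members lower and 5 higher by any amount. Without overlap, 2 lay above (9.09%, against 5.33% of all genes) and 1 below (4.55%, against 7.17%). The monocyte attractant Ccl2 had 337, 195 and 431 in the right lungs at 3 h, against 1612, 403 and 1113 in those at 30 min, overlapping by 1 array (-1.48 ± 0.51, limma adjusted p = 0.22). Cxcl1, an attractant of neutrophils, had 835, 1173 and 1788 in the right lungs at 3 h, against 4131, 2369 and 1745 in those at 30 min, overlapping by 1 array (-1.08 ± 0.35, adjusted p = 0.20). Both genes were above control in the right lungs, Ccl2 by 1.55 ± 0.44 at 3 h and 3.04 ± 0.44 at 30 min, and Cxcl1 by 1.48 ± 0.30 and 2.56 ± 0.30, all 4 differences with an adjusted p under 0.05 (7.75% of all genes were higher than control at 3 h and 5.93% at 30 min). Il6 had 199.99, 87.6 and 675 in the right lungs at 3 h, against 765, 208 and 469.7 in those at 30 min, which overlap (-0.79 ± 0.61).

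Genes of the acute phase and metal handling were higher at 3 h in 13 of 14 members, none of them called. Of 14 measured, 5 lay above without overlap (35.7%, against 5.33% of all genes), none below, and the median was 0.48. The protease inhibitor Serpina3n had 469, 554 and 1943 in the right lungs at 3 h, against 199, 107 and 481 in those at 30 min, which overlap (1.74 ± 0.67, limma adjusted p = 0.28). Lipocalin Lcn2 had 5585, 341 and 7904 in the right lungs at 3 h, against 414, 2083 and 928 in those at 30 min, with 1 low array among the 3 h lungs. Fgg, the gamma chain of fibrinogen, was named after its values were seen and had 3119, 2520.3 and 2088 in the right lungs at 3 h, against 639.5, 1795 and 893 in those at 30 min, without overlap (1.31 ± 0.33, adjusted p = 0.12).

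Glucocorticoids are released in surgical stress, and 2 known target genes were named after their values were seen, because both were high at both times. Fkbp5, a co-chaperone of the glucocorticoid receptor, had 1937, 1743 and 2099 in the right lungs at 3 h, against 2254, 1556 and 2148 in those at 30 min, a difference of -0.03 ± 0.25, while controls were 255 to 507 (median 302). Metallothionein Mt2A had 10059.8, 5319 and 15293 in the right lungs at 3 h, against 10029.7, 5129 and 7530.4 in those at 30 min (0.36 ± 0.37). Its controls had 376 to 959 (median 443), below every right array. Of 26 measured in this list none was called and 3 lay above without overlap (11.5%, against 5.33% of all genes). Fkbp5 was above control by 2.51 ± 0.22 at 3 h and 2.54 ± 0.22 at 30 min, and Mt2A by 4.04 ± 0.32 and 3.68 ± 0.32, where 7.75% of all genes were called higher than control at 3 h and 5.93% at 30 min.

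Markers of monocytes and macrophages were higher at 3 h in 15 of 16 members, none of them called. Of 16, 6 lay above without overlap (37.5%, against 5.33% of all genes) and none below, with a median of 0.37, or 0.34 without right 30 min replicate 3. The endotoxin co-receptor Cd14 had 2516, 1336 and 3745 in the right lungs at 3 h, against 2056, 1085 and 906 in those at 30 min (0.87 ± 0.37, limma adjusted p = 0.33), and the fatty acid binding protein Fabp4 had 321, 569 and 225 in the right lungs at 3 h, against 172, 246 and 150.3 in those at 30 min (0.82 ± 0.35, adjusted p = 0.33). The mean log2 signal over the list was 10.2, 9.93 and 10.1 at 3 h, against 9.66, 9.74 and 9.52 at 30 min and 9.53 to 9.79 in controls (exact permutation p = 0.1, two-sided, the smallest possible). Neutrophil markers scattered more, with a median of 0.39 over 8 genes and no member without overlap.

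Genes of the ribosome, the proteasome and the respiratory chain were slightly higher at 3 h, in 33 of 34, 30 of 34 and 48 of 52 members. Among 34 ribosomal protein genes none was called, 15 lay above without overlap (44.1%, against 5.33% of all genes), none below, and the median was 0.17. The largest, Rps15a, had 6655, 7879 and 7083 in the right lungs at 3 h, against 4903, 5179.6 and 4885 in those at 30 min (0.53 ± 0.15, limma adjusted p = 0.15). Of 34 proteasome genes 10 lay above and 1 below (median 0.18), with the core subunit Psma2 at 2161, 2900.2 and 1973 in the right lungs at 3 h, against 1634, 1806 and 1343 in those at 30 min (0.54 ± 0.17, adjusted p = 0.18). Of 52 genes of oxidative phosphorylation 11 lay above and none below (median 0.18), the complex I subunit Ndufv2 having 1438, 1725 and 1434 in the right lungs at 3 h, against 1129.8, 1212 and 1028 in those at 30 min (0.44 ± 0.15, adjusted p = 0.21). Without right 30 min replicate 3 the medians of the ribosomal, proteasome and oxidative phosphorylation lists were 0.21, 0.11 and 0.17. With quantile normalization the ribosomal median was 0.03, so its size depends on the scaling.

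Collagen and laminin genes were lower at 3 h in 22 of 25 members, and smooth muscle and pericyte markers in 14 of 14. Of all 7728 genes, 4122 were lower by any amount. Of 25 collagen and laminin genes 5 lay below without overlap (against 7.17% of all genes) and none above (median -0.22), none called. The fibrillar collagen Col1a1 had 2033, 1139.8 and 2369.8 in the right lungs at 3 h, against 3030.0, 3253 and 2812 in those at 30 min (-0.77 ± 0.24, limma adjusted p = 0.18). Of 14 smooth muscle and pericyte markers 2 lay below (14.3%, against 7.17% of all genes; median -0.33, or -0.19 without replicate 3 of 30 min), among them the smooth muscle protein Smtn with 222, 203 and 259 in the right lungs at 3 h, against 319, 359 and 447 in those at 30 min (-0.66 ± 0.17, adjusted p = 0.13). Other matrix genes did not follow. Of 19 matrix remodelling genes 4 lay above without overlap (21.1%, against 5.33% of all genes) and none below. Of 13 fibroblast markers 5 lay above (38.5%) and 2 below (15.4%). No member of either list was called. Alveolar type I markers, of which 3 of 13 lay above (23.1%), had a median of 0.21, and type II markers, with 2 of 13 above (15.4%), one of 0.17, against 5.33% above over all genes. In the circadian list the clock repressor Per2 had 330.2, 211 and 676 in the right lungs at 3 h, against 1604, 654 and 323 in those at 30 min (-0.91 ± 0.51). Its activator Bmal1 had 464, 436 and 214 in the right lungs at 3 h, against 119.7, 220.4 and 221 in those at 30 min (0.88 ± 0.33), and neither was called. The clock time of collection is not given.

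Over all 55 lists 913 genes were measured and 5 called, Cd36 higher and Mx2, Alox15, Slc4a1 and Bpgm lower, in 4 lists, against 0.0129% higher and 0.181% lower of all genes.

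**Figure D3:**
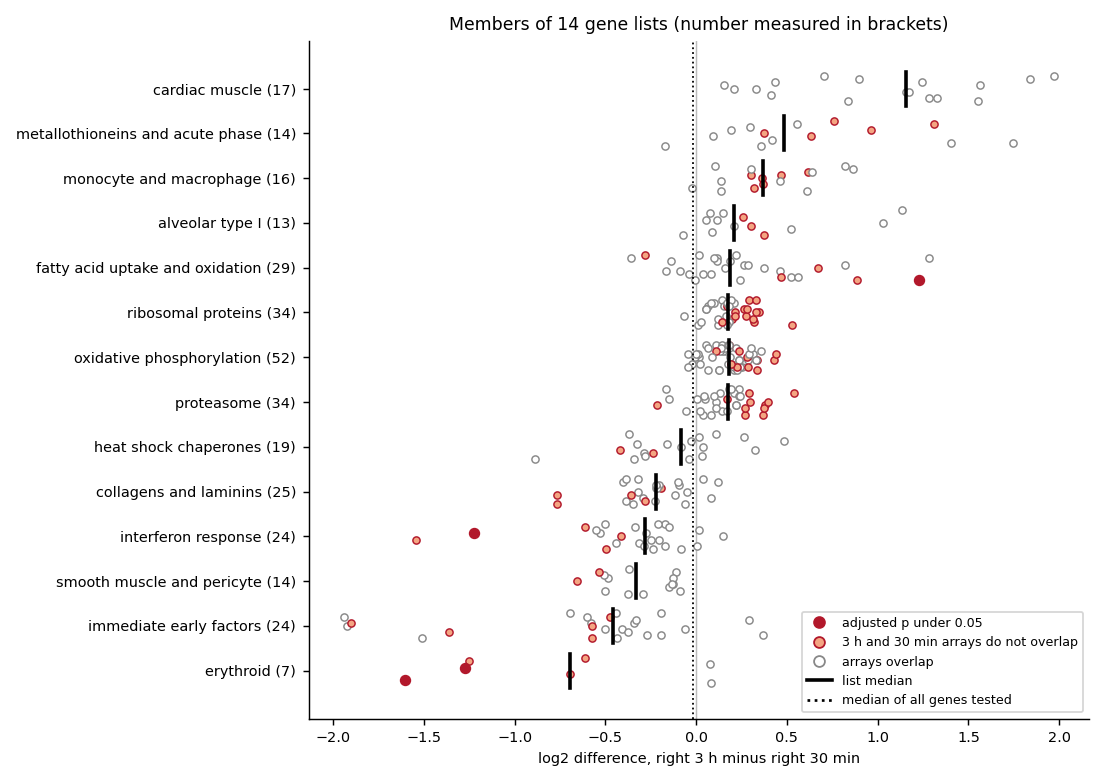
Log2 difference, right 3 h minus right 30 min, for each measured member of 14 gene lists; filled red points were called, orange points have no overlap between the 3 h and 30 min arrays, open points overlap, the black bars are list medians and the dotted line the median of all genes tested (-0.02). The erythroid median lies lowest, at -0.69, and the cardiac muscle median highest, at 1.16, with no cardiac member free of overlap.

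The change with time in the unclamped right lungs differed from that in the clamped left lungs in 24 probe sets (0.228%), representing 18 genes, 2 with a more positive and 16 with a more negative change on the right (0.0259% and 0.207% of 7728 genes). Of the 16, 9 are heat shock chaperones or co-chaperones of the list of 19 measured. All 9 were called higher with time in the left lungs and none was called in the right lungs. The test treats the lungs of a rat as independent. Without the 3 arrays of highest beta-actin ratio, which are right 30 min replicate 3 and left 30 min replicates 1 and 3, 5 of the 24 probe sets remained called. The count was 10 without right 3 h replicate 1, 13 without left 30 min replicate 3, 14 without right 30 min replicate 2 or 3, and 15 without left 3 h replicate 1 or left 30 min replicate 1.

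The heat shock list as a whole had a median difference between the times of -0.08 in the right lungs, against 1.18 in the left lungs, where 13 members rose (1.23% of all genes rose there). Hspa1a, the inducible Hsp70, had signals of 596, 583 and 1340.4 in the right lungs at 3 h, against 2299.8, 1501 and 892 in those at 30 min, which overlap (-0.89 ± 0.31, limma adjusted p = 0.23). The left lungs had 12648, 11284 and 11863 at 3 h, against 2196, 2203 and 1696 at 30 min. The difference between the changes was -3.43 ± 0.44 (adjusted p = 0.0014), and it is uncertain how far it belongs to Hspa1a, since the near-identical copy Hspa1b may share its probes.

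The Hsp70 co-chaperone Dnaja1 had 1194, 1169 and 1184 in the right lungs at 3 h, against 1979, 1583 and 1286 in those at 30 min (-0.42 ± 0.18, limma adjusted p = 0.32). Its left lungs had 8216, 5813 and 6821 at 3 h, against 1737, 1730.3 and 1433 at 30 min, and the difference between the changes was -2.48 ± 0.25 (adjusted p = 0.00014). In Hspb1, the small heat shock protein Hsp27, it was -2.40 ± 0.32 (adjusted p = 0.0015), with right lungs at 2047, 1565 and 3046 at 3 h, against 2452, 3231 and 2695 at 30 min. For the Hsp110 exchange factor Hsph1 it was -2.30 ± 0.37, and for the J-domain co-chaperone Dnajb1 -2.04 ± 0.27 (adjusted p = 0.0089 and 0.0015). The other called members were Bag3, Hspd1, Stip1 and Dnaja4. The 2 genes with a more positive change on the right were the ubiquitin ligase Mylip (1.09 ± 0.20, adjusted p = 0.021) and the zinc finger gene Patz1 (0.79 ± 0.15, adjusted p = 0.037). Mylip kept its call in 11 of 21 alternative settings (adjusted p up to 0.598) and Patz1 in 7 of 21 (up to 0.73), while Hspa1a, Dnaja1, Hspb1, Hsph1 and Dnajb1 kept theirs in 19 to 21.

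The letters GAA, any 2 bases, TTC, any 2 bases and GAA, a form of the heat shock element, were found on either strand in the promoter windows of 3 of these 9 genes and in 0.798% of all windows. On the whole heat shock list 6 of 17 genes with a window held it. Among the 6 were Hspe1, Chordc1 and Serpinh1, not called in this test, so the element was not particular to the 9. The 3 windows are shown on the strand of each gene, with the element in capitals, since they belong to the genes in which right and left differed. They lie in GRCr8 at chr5:60638154-60638453 (plus strand) for Dnaja1, chr12:10427118-10427417 (plus strand) for Hsph1 and chr9:64083988-64084287 (minus strand) for Hspd1, the last with 2 overlapping matches.
Dnaja1: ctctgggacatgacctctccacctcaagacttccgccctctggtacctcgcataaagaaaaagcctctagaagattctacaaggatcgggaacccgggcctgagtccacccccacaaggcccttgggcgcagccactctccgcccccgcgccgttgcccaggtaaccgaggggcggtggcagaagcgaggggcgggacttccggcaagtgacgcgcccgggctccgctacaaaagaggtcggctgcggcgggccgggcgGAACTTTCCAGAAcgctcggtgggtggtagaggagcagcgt
Hsph1: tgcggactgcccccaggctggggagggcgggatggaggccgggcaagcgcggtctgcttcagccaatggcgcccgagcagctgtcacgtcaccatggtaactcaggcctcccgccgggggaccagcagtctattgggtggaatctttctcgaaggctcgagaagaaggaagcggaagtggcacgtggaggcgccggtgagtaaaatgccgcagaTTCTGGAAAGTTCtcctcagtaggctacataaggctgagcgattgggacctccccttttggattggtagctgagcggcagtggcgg
Hspd1: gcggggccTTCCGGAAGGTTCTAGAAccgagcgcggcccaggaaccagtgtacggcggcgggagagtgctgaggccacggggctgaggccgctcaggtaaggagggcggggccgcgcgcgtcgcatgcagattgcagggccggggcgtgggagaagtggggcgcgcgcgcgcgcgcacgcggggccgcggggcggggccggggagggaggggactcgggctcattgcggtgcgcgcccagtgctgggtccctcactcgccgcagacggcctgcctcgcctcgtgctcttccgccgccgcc

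**Figure D4:**
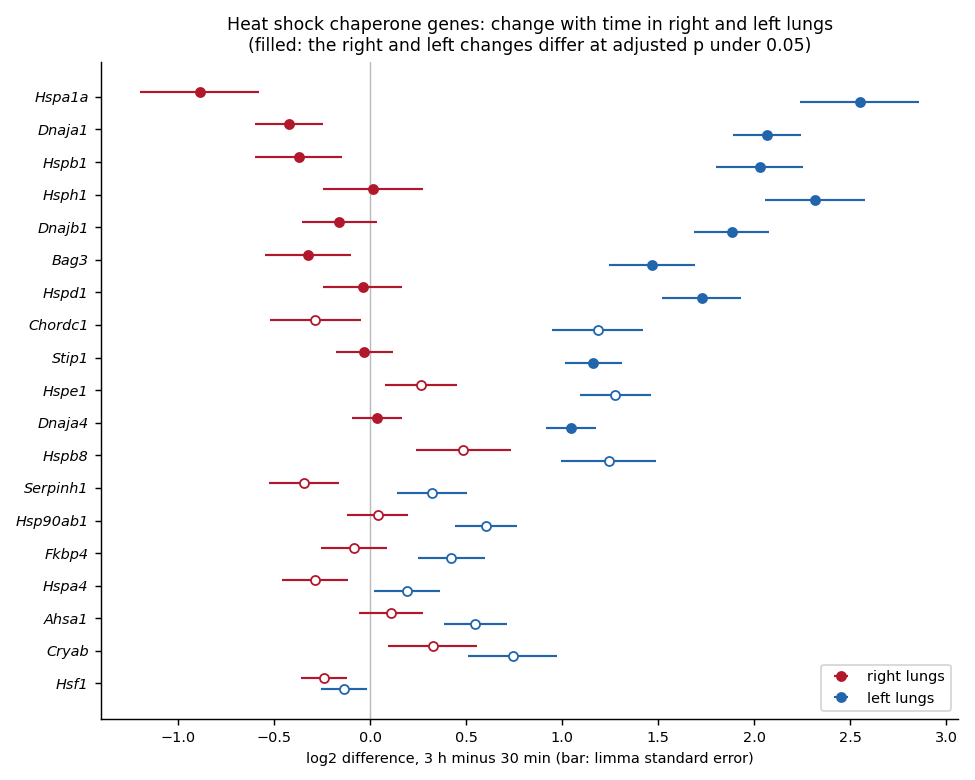
Log2 difference, 3 h minus 30 min, with its SE for 19 heat shock genes in right and left lungs; filled points mark genes whose right and left changes differed at a limma adjusted p under 0.05. The right lungs have a median of -0.08, and the left lungs one of 1.18.

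The number of called probe sets between right 3 h and right 30 min depended on which arrays shared the estimate of spread and on single arrays. It was 21 with all 18 arrays in the fit and 0 with the 12 operated arrays or the 6 right arrays alone, which had 941 and 773 probe sets at an unadjusted p under 0.05. With array quality weights, chosen after seeing the data, it was 69.

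**Figure D5:**
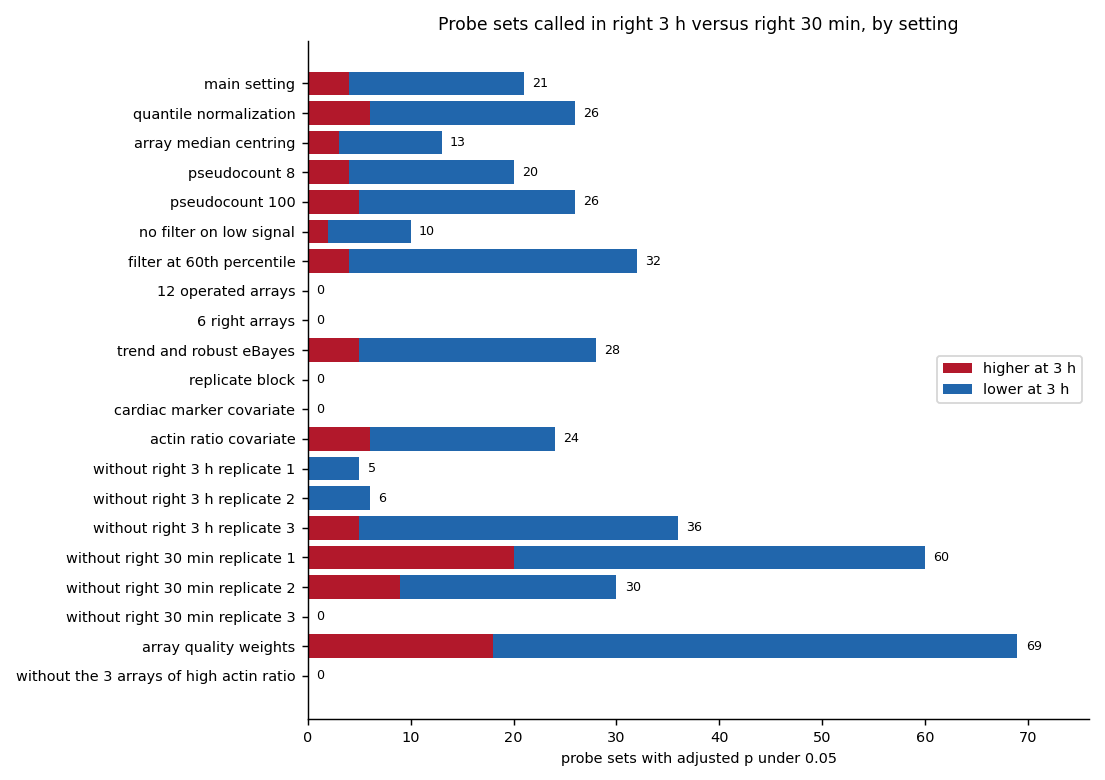
Number of probe sets called between right 3 h and right 30 min under each processing setting, stacked as higher and lower at 3 h. The count is 21 in the main setting and runs from 0 to 69.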

How the data were processed

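RNA of 18 rat lungs was measured on Affymetrix RAE 230A arrays. Signal intensity values, 1 per probe set and array, were deposited by the authors, and were made with MAS5, per the submitters' processing notes whose version is not stated in them. The 2% trimmed mean of each array was 500.1, so arrays had been scaled to 1 level, and fold changes between lungs are relative to it. From these values log2(signal + 25) was taken, which understates the change of dim probe sets. Probe sets above a signal of 173.6 (the 40th percentile) on at least 3 arrays were kept, 10533 of 15923 less 57 controls. limma 3.58.1 (R 4.3.3; lmFit and eBayes) fitted 5 group means over all 18 arrays, with Benjamini-Hochberg adjustment over all tested probe sets. Single values were compared by exact permutation tests (own code with numpy 2.4.6). A family of 22 array and marker list measures was tested this way, and the lowest Benjamini-Hochberg value was 0.629. The code was tested on simulated data.

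Gene symbols came from the platform annotation of 2016, in which 12783 probe sets carry 1 symbol, 312 carry more and 2771 carry none. A gene is the tested probe set of highest mean. Named genes were up to 15 largest rises and falls among called genes without overlap, each list's members past the threshold or else its 2 of largest difference, the 5 largest right-left differences in each direction, and ligand or receptor partners of named genes. Others are said to have been named after their values were seen. Members and gene lists were chosen with earlier results of these data known. Alternatives were other scaling, pseudocounts, filters, arrays in the fit, covariates and left-out replicates. Promoter sequences are from RefSeq (GRCr8). Of the 15 called genes 11 had one.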

Additional observations from a re-analysis of the deposited data

Results flagged for a closer look

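In the groups of 6 controls, 1 value far from the others was found in 4 of 43 groups of values examined. Chance flags about 1 in 20 independent groups, but these 43 share the same 6 arrays and are not independent. The flagged values of Rbm38, Dnaja1 and Hsph1 all come from control replicate 5. The lowest control of Rbm38 had a signal of 293, against 382 in the next. The highest control of Dnaja1 had 2222 and that of Hsph1 1677, against 1634 and 1189 in the next. The lowest control mean log2 signal of the mast cell and basophil markers was 8.24, against 8.67.

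The change with time differed between right and left lungs in 24 probe sets by the limma test of the difference itself. Mylip (1.09, adjusted p = 0.021) and Patz1 (0.79, adjusted p = 0.037) had the more positive change in the right lungs. Hspa1a (-3.43, adjusted p = 0.0014), Dnaja1 (-2.48, adjusted p = 0.00014), Hspb1 (-2.40, adjusted p = 0.0015), Hsph1 (-2.30, adjusted p = 0.0089) and Dnajb1 (-2.04, adjusted p = 0.0015) had the more negative.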

How the results depend on the processing

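For right 3 h minus right 30 min, 21 probe sets were called. The count was 13 with array median centring, 10 with no filter on low signal, 32 with a filter at the 60th percentile, 0 with the 12 operated arrays, 0 with the 6 right arrays, 0 with the cardiac marker covariate, 69 with array quality weights and 0 without the 3 arrays of high beta-actin ratio, the last pair chosen after seeing the data. In the fits with a count of 0, 773 to 959 probe sets were at an unadjusted p under 0.05, except for the block below. Quantile normalization, pseudocounts of 8 and 100, trend and robust eBayes and the actin ratio covariate gave 20 to 28. Leaving out single right replicates gave 0 to 60. For right minus left changes the count of 24 became 8 with the 12 operated arrays, 13 with the cardiac marker covariate, 14 with the actin ratio covariate and 5 without the 3 arrays of high beta-actin ratio, and 10 to 30 with single replicates left out. The lists' 5 called genes became 3 with median centring, 9 with array quality weights, 0 without those 3 arrays, and 0 to 6 with single replicates left out, the 0 being without right 3 h replicate 1 or 2 or right 30 min replicate 3. All 15 called genes kept their direction and call under quantile normalization and both pseudocounts, and 0 of 15 kept the call with the 6 right arrays or the cardiac marker covariate. The 15 called genes kept their direction in each of the 16 settings examined for them. Leaving out an array or changing the pseudocount could not reverse it, because the 3 h and 30 min arrays of these genes do not overlap. The median difference over all genes, -0.02, changed sign. It was 0.002 without right 30 min replicate 3 and 0.02 with array median centring. The cause of these changes was not tested.

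With the replicate number as a block, the counts were 0 for right 3 h minus right 30 min (751 probe sets at an unadjusted p under 0.05) and 4 for right minus left changes. The lungs of 3 h and 30 min are from different rats, and their same-numbered deviations correlated at -0.121, 0.083 and -0.095. Right and left lungs of a time share rats. Their same-numbered deviations correlated at -0.165, 0.066 and -0.151 at 3 h, and at 0.122, 0.307 and 0.146 at 30 min, where each lung correlated best with its own number, a hint from the data that the labels do not state. Over both times the numbers did not pair the samples. With 3 arrays a group, differences within the spread between arrays could not be detected.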
